A study of Danio rerio with 5 samples.

Results

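The genes described here are the Slit ligands and their Robo receptors in vagus motor neurons of zebrafish embryos (Danio rerio). They were chosen by name. A symbol in the list robo1, robo2, robo3, robo4, slit1a, slit1b, slit2 and slit3 was matched regardless of case, or, where the table writes it in capitals, with the final a or b left off. This found 8 identifiers, 4 Robo and 4 Slit, of 31953 Ensembl genes in the count files. The symbol SLIT1 belongs to 2 of them (ENSDARG00000044954 and ENSDARG00000099446), and it does not say which is slit1a and which is slit1b.

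All embryos were Tg(isl1:Kaede), aged 28 to 30 hours after fertilisation, and carried no other listed allele or treatment. The isl1 transgene puts Kaede, a green fluorescent protein that light turns red, into motor neurons and other isl1-expressing cells. Red cells of either end of the vagus population, anterior or posterior, were picked by hand, 100 per library, which gave 2 anterior libraries (B and G) and 3 posterior libraries (B, G and R). The letters come from the sample titles, which do not say what they mean, nor whether libraries came from separate animals, so p-values measure only the spread between these libraries.

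Slits are secreted proteins that bind Robo receptors on growth cones and on migrating cells, and in most settings repel them. They are best known from the ventral midline, where floor plate cells release Slit and keep axons from crossing or crossing again. Cranial and spinal motor neurons also make Slits themselves, and mice without Slits or Robos have misplaced motor neurons and misrouted motor axons in the hindbrain. Mammalian Robo3 differs from its relatives in binding Slit poorly and in acting on Robo1 and Robo2 signalling, and Robo4 is known mainly from blood vessels.

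Reads assigned to genes numbered 14932562 to 20088585 per library, and 10463 (posterior B) to 13589 (anterior G) genes had at least 1 read. The motor neuron gene ISL1, the gene of the transgene that marked the picked cells, had 1805 to 2381 CPM. Here CPM means reads per 1e+06 reads of the library in tested genes, after trimmed-mean (TMM) scaling. Other motor neuron markers varied more between libraries, such as SLC18A3 at 11.2 CPM in posterior B and 140 CPM in anterior G. The acetylcholine-synthesis gene CHAT, a marker of mature motor neurons, was at 0 to 36.1 CPM. Interneuron markers summed to 71.8 CPM in anterior G, 21.4 CPM in posterior G and 0.260 CPM or less in the other libraries. Neural crest markers had 0 reads in every library, while the progenitor and radial glia list summed to 2856 to 4691 CPM. Most of that sum came from mki67, PCNA and FABP7 (ENSDARG00000007697). Of the other genes of that list, sox19a had 286 to 499 CPM and the NOTCH1 gene ENSDARG00000103554 had 128 to 320 CPM. The rest were lower, with SOX2 at 10.5 to 65.2, GFAP at 0.236 to 72.5 and her4.1 at 13.1 to 75.3 CPM. A gene with 3 reads, used as the floor, had 0.148 to 0.195 CPM, and floors and intervals of read shares cover counting error only. Libraries had 0 reads for many genes of moderate level. Among genes with 30 to 100 CPM in the other 4 libraries, posterior B had 0 reads for 13.7% and the other libraries for 2.37% to 5.11%.

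Transcripts of SLIT3, SLIT2, ROBO2 and ROBO3 were present in all 5 libraries, at both ends of the vagus population. ROBO1 had 61 or more reads in both anterior libraries and 16 or fewer in each posterior one. The gene robo4 had over 50 CPM in 2 libraries, 1 of each group, and 0 or 1 reads in the other 3. One SLIT1 gene was found in 4 libraries at 15.6 to 44.6 CPM and the other stayed at 3.12 CPM or less. Of the 8 genes, 0 had an edgeR adjusted p under 0.05 for posterior against anterior, as was the case for 0% of the 11827 genes tested. At an unadjusted p under 0.05 there were also 0 of the 8, against 6.49% of all genes tested. DESeq2 gave 0 at either threshold among those it tested, with no p for robo4 and no adjusted p for ROBO1 or ENSDARG00000044954. All 8 passed the filter on low counts. Exon lengths were not used here, so levels of different genes are not compared.

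**Figure D1:**
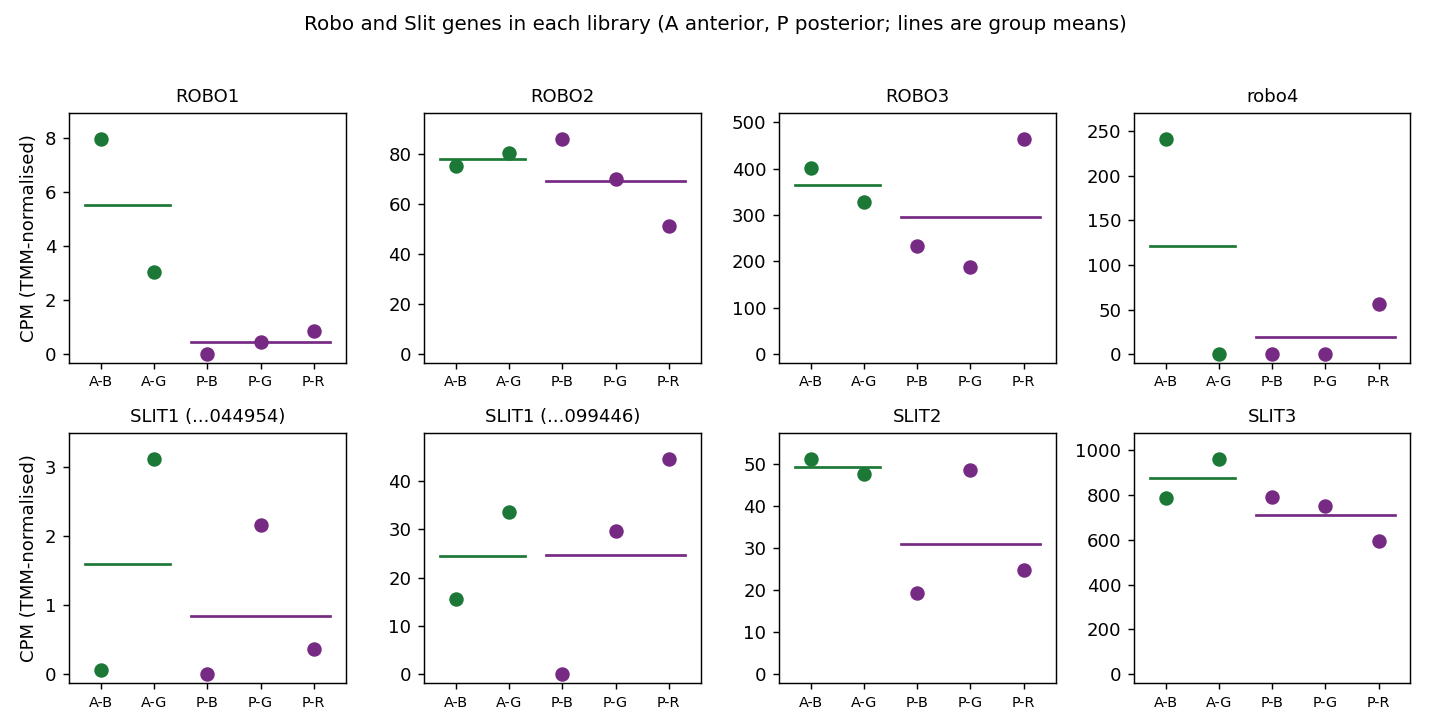
TMM-normalised CPM (vertical axis, a separate linear scale for each gene) of the 8 Robo and Slit genes in each library, with anterior libraries in green, posterior libraries in purple and lines at the group means. ROBO1 is the gene whose groups do not overlap, with 3.02 CPM or more in anterior and 0.844 CPM or less in posterior libraries, and robo4 is high in anterior B and posterior R.

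Among the ligands, SLIT3 (ENSDARG00000034268) had 786 (B) and 962 (G) CPM in anterior cells, against 793 (B), 751 (G) and 594 (R) CPM in posterior cells. The groups overlapped, since posterior B lay just above anterior B. The anterior mean was 874 ± 124 CPM (SD, n = 2) and the posterior mean 713 ± 105 CPM (SD, n = 3). Their log2 fold change, posterior minus anterior, was -0.30 with an SE of 0.30, at an edgeR adjusted p of 0.859. The 95% interval of this difference ran from 0.517-fold to 1.28-fold, the narrowest of the 8 genes. With 1 library left out the log2 fold change ran from -0.44 (without anterior B) to -0.15 (without anterior G). In bulk samples like these, fewer cells with a transcript and less of it per cell cannot be told apart.

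SLIT2 (ENSDARG00000004246) had 51.3 (B) and 47.6 (G) CPM in anterior cells, against 19.3 (B), 48.5 (G) and 24.9 (R) CPM in posterior cells. Posterior G was level with the anterior libraries, and the other posterior libraries were lower. The log2 fold change was -0.68 with an SE of 0.82, at an edgeR adjusted p of 0.887, with a 95% interval from 0.181-fold to 2.14-fold. With 1 library left out it ran from -1.14 (without posterior G) to -0.42 (without posterior B). The SLIT2 interval includes changes that the SLIT3 interval leaves out, in both directions.

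SLIT2 and SLIT3 are known in vertebrates as hosts of the motor neuron microRNA miR-218. In the RefSeq annotation of GRCz12tu, the gene mir218a-2 lies inside slit2 and mir218a-1 inside slit3. The hairpin gene mir218a-1 (ENSDARG00000081745) had 0 reads in all 5 libraries, which were made by a method for polyadenylated RNA that does not capture short RNAs, so nothing is read from this zero.

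The SLIT1 gene ENSDARG00000099446 had 15.6 (B) and 33.5 (G) CPM in anterior cells, against 0 (B), 29.6 (G) and 44.6 (R) CPM in posterior cells. Both the lowest and the highest value were posterior. The anterior mean of 24.5 ± 12.7 CPM (SD, n = 2) was close to the posterior mean of 24.7 ± 22.7 CPM (SD, n = 3), at an edgeR adjusted p of 0.997 and a 95% interval from 0.192-fold to 5.48-fold. Posterior B, where it had 0 reads, is the library with 0 reads for the largest share of genes of this level. The cause of its zero was not tested.

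The other SLIT1 gene, ENSDARG00000044954, had 1 (B) and 63 (G) reads in anterior cells, against 0 (B), 34 (G) and 7 (R) reads in posterior cells. Neither group was free of it, and the G libraries held most of its reads. Its highest level was 3.12 CPM, in anterior G, and its edgeR adjusted p was 0.947.

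Floor plate markers, which mark a known source of Slit, varied between libraries beside these values. Of the 9 listed identifiers, 2 (posterior B) to 7 (posterior G) were above 3 reads. They summed to 564 (B) and 323 (G) CPM in anterior cells, against 52.5 (B), 684 (G) and 268 (R) CPM in posterior cells. The netrin (NTN1) and spondin (SPON1) genes gave most of each sum. The defining gene FOXA2 had 14.0 CPM in posterior G and 0 reads in the other libraries. Of the genes named SHH, ENSDARG00000068567 had 14.8 and 36.5 CPM in posterior G and R and 0 reads elsewhere, while ENSDARG00000038867 had 0 reads throughout. Other markers of the list were found in anterior G too, where foxa had 11.9 CPM and FOXJ1 had 78.2 CPM, against 37.7 and 4.50 CPM in posterior G and 23.96 and 24.5 CPM in posterior R. Their part in the Slit values was not tested.

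Among the receptors, ROBO2 (ENSDARG00000014891), a Slit receptor of axons, had 75.2 (B) and 80.6 (G) CPM in anterior cells, against 86.2 (B), 70.2 (G) and 51.2 (R) CPM in posterior cells. The anterior values lay inside the posterior range. The log2 fold change was -0.19 with an SE of 0.64, at an edgeR adjusted p of 0.974, with a 95% interval from 0.336-fold to 2.30-fold. Without posterior R, the lowest library, it was 0.026.

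ROBO3 (ENSDARG00000005645) had 401 (B) and 328 (G) CPM in anterior cells, against 233 (B), 187 (G) and 465 (R) CPM in posterior cells. Posterior R was above both anterior libraries, and posterior B and G were below them. The anterior mean was 365 ± 51.6 CPM (SD, n = 2) and the posterior mean 295 ± 149 CPM (SD, n = 3). The log2 fold change was -0.29 with an SE of 0.46 at an edgeR adjusted p of 0.926, with a 95% interval from 0.410-fold to 1.63-fold. With 1 library left out, the ROBO3 log2 fold change ran from -0.77 (without posterior R, edgeR adjusted p 0.7998) to -0.047 (without posterior G).

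ROBO1 (ENSDARG00000026784), a Slit receptor of axons and the next coding gene to robo2 in the RefSeq annotation, had 135 (B) and 61 (G) reads in anterior cells, against 0 (B), 7 (G) and 16 (R) reads in posterior cells. In CPM these were 7.96 and 3.02, and 0, 0.444 and 0.844. The anterior values were all higher, as were those of 12.3% of all genes tested, so 1 of 8 is near the background. No member had all posterior values higher, against 9.57% of genes. The posterior mean was 0.0782 of the anterior mean, a log2 fold change of -3.51 with an SE of 2.06, at an edgeR adjusted p of 0.726. Its 95% interval ran from 0.00389-fold to 1.99-fold. Since its groups do not overlap, refits of the same libraries could hardly change its direction. ROBO1 stayed lower in posterior cells in all 11 distinct alternatives that tested it, at log2 fold changes of -4.53 to -2.70, none with an adjusted p under 0.680.

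The gene robo4 (ENSDARG00000009387), which lies next to robo3 in the RefSeq annotation, had 4100 (B) and 1 (G) reads in anterior cells, against 1 (B), 0 (G) and 1064 (R) reads in posterior cells. In CPM it had 242 in anterior B and 56.2 in posterior R. Thus 1 library of each group carried it, and the groups overlapped. The fitted log2 fold change of -2.50 (edgeR adjusted p 0.726) rests on anterior B, without which it was 8.52, while without anterior G it was -3.55 (unadjusted p 0.00743, edgeR adjusted p 0.607).

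The same pattern was looked for in other genes. Of 4396 tested genes with at least 50 CPM in at least 2 libraries, 7 were at or under 3 reads in the other 3, and robo4 was the only 1 of these that was high in anterior B and posterior R. The thresholds of this count and its pair of libraries were chosen after the robo4 values were seen. The 4396 genes include those high in more than 2 libraries, which could not show the pattern. Of the 5 endothelial identifiers listed, 0 or 1 was above 3 reads in each library. The vessel receptor gene kdrl had 97.0 CPM in anterior B, with the rest of the list at 0 there, and TIE1 had 16.5 CPM in posterior G, where robo4 had 0 reads. In posterior R the endothelial list had 0 reads. The markers cdh5, FLI1 and KDR had 0 reads in every library. Of the 4 skin markers, krt4 had 30.0 CPM in anterior B, where epcam, cdh1 and TP63 had 0 reads, and TP63 had 367 reads in posterior G and 72 reads in posterior R. The part of other cell types in the robo4 reads of anterior B was not tested.

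The make-up of the receptor reads differed between libraries. Over ROBO1, ROBO2 and ROBO3, the share of ROBO3 was 82.8% (B) and 79.7% (G) in anterior cells, against 73.0% (B), 72.6% (G) and 89.9% (R) in posterior cells. The exact binomial 95% intervals of these shares were at most 1.40 percentage points from the value. They cover counting error only, not the spread from the picking of cells or the making of libraries, so they do not test differences between libraries. As observed shares, posterior B and G were nearly equal and below the anterior libraries, and posterior R was above the anterior libraries. Reads of ROBO3 per read of ROBO2 were 5.34 (B) and 4.07 (G) in anterior cells, against 2.71 (B), 2.66 (G) and 9.08 (R) in posterior cells. This ratio is free of library scaling, though not of gene length, so it compares libraries and not receptors.

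Among the ligand reads, SLIT3 took a share of 92.2% (B) and 91.95% (G) in anterior cells, against 97.6% (B), 90.3% (G) and 89.5% (R) in posterior cells. The high share in posterior B went with the absence of both SLIT1 genes and the lowest SLIT2 level. All 4 Slit genes together summed to 853 (B) and 1046 (G) CPM in anterior cells, against 813 (B), 831 (G) and 664 (R) CPM in posterior cells. The sum over ROBO1 to ROBO3 was 484 (B) and 412 (G) CPM in anterior cells, against 319 (B), 258 (G) and 517 (R) CPM in posterior cells. For the Robo sum posterior R was the highest of all. For the Slit sum both anterior libraries were above every posterior one, as was the case for 12.3% of single genes tested. The Slit sum is mostly SLIT3, whose own groups overlapped.

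**Figure D2:**
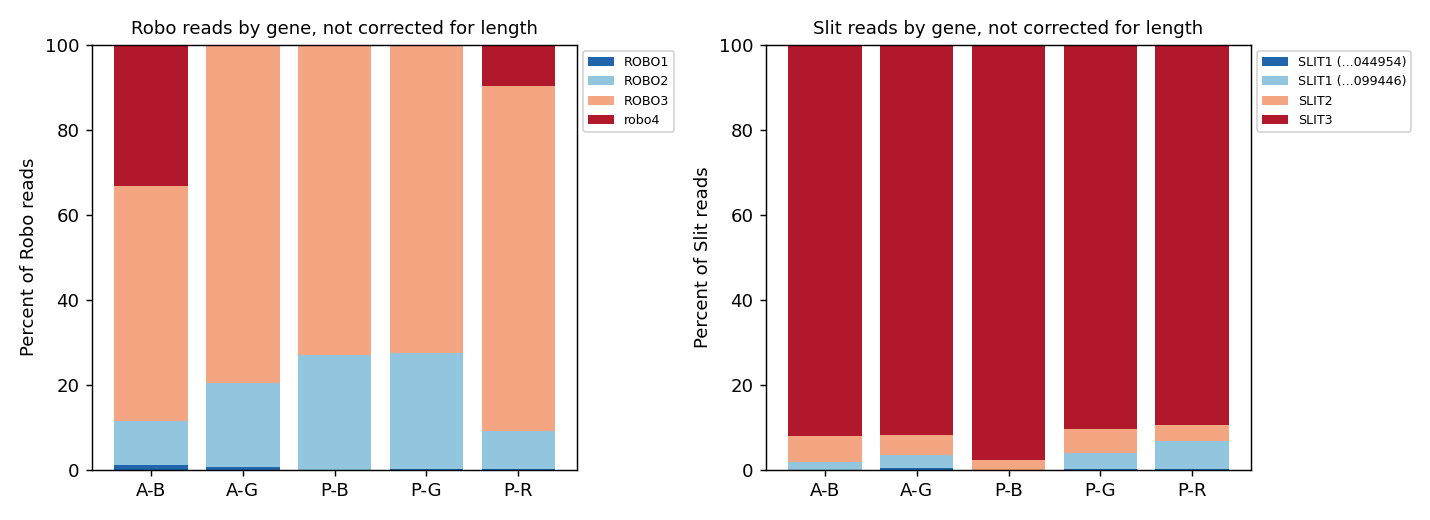
Percent of Robo reads (left) and of Slit reads (right) that each gene took in each library (A anterior, P posterior; the letter is the replicate), not corrected for gene length. ROBO3 took 55.2% to 81.1% of Robo reads with robo4 included, robo4 is visible in A-B and P-R only, and SLIT3 took 89.5% to 97.6% of Slit reads.

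The members peaked in different libraries. Posterior R was the lowest library for SLIT3 and ROBO2 and the highest for ROBO3 and the SLIT1 gene ENSDARG00000099446. Over all 5 libraries the ratio of the highest to the lowest was 1.62 for SLIT3, 1.68 for ROBO2, 2.49 for ROBO3 and 2.66 for SLIT2. The other 4 genes had a library with 0 reads.

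The genes most like each of SLIT3, ROBO3 and ROBO2 were sought over the 5 libraries among 8036 tested genes with a mean of at least 10 CPM. The measure was the root mean square difference of log2(CPM + 1), each gene centred on its own mean. The nearest gene to SLIT3 was ELAVL3 (ENSDARG00000014420), an RNA-binding protein gene that marks newborn neurons, at a difference of 0.062, where the median of all genes was 1.00. ELAVL3 had 3508 (B) and 4408 (G) CPM in anterior cells, against 3353 (B), 3529 (G) and 2841 (R) CPM in posterior cells. ENSDARG00000099650 and SEPTIN7 (ENSDARG00000087647), a cytoskeletal GTPase gene, followed at 0.084 and 0.087.

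The nearest to ROBO3 were efs (ENSDARG00000088835), a docking protein gene of the Cas family, at 0.052, ddx39b, an RNA helicase gene, at 0.078 and MRPS12, a mitochondrial ribosomal protein gene, at 0.088. The nearest to ROBO2 were TBCA (ENSDARG00000016754), a tubulin-folding cofactor gene, at 0.034, TNNI2, a troponin gene, at 0.054 and ENSDARG00000098584 at 0.078. These genes were picked as the nearest of 8036 over 5 libraries, so the small differences carry no test.

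**Figure D3:**
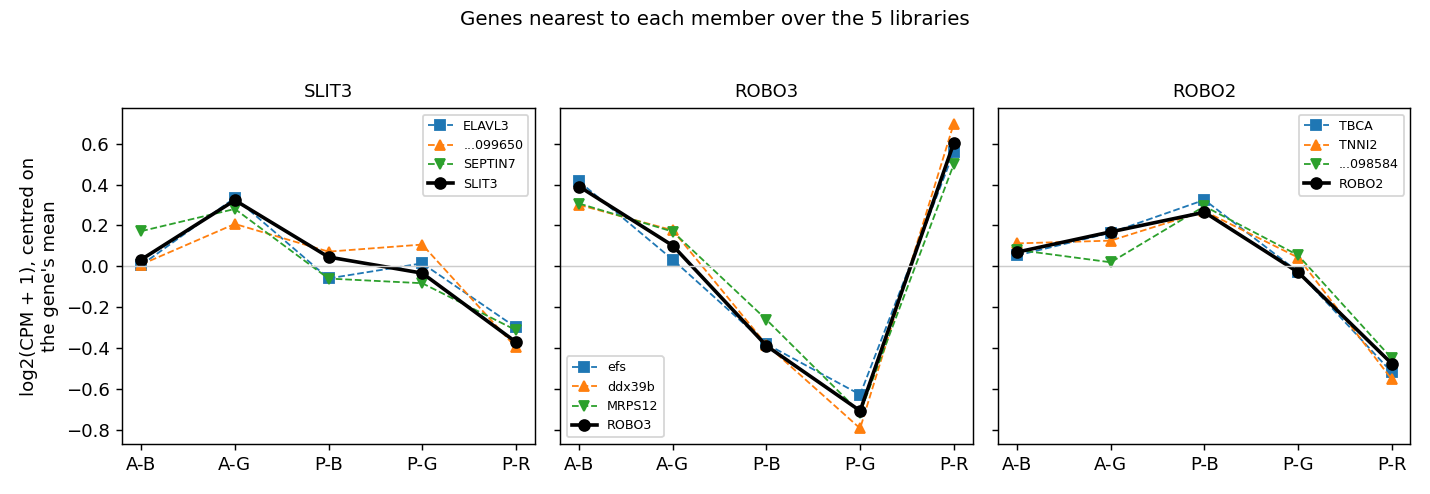
Log2(CPM + 1) centred on each gene's mean (vertical axis) across the 5 libraries for SLIT3, ROBO3 and ROBO2 (black) and the 3 nearest tested genes of each (dashed). The 3 members peak in different libraries, anterior G, posterior R and posterior B in turn, and the dashed genes follow them because they were picked for that.

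The rest of the pathway was read from a list of 68 identifiers in 5 groups, of which 54 were tested. None passed the edgeR adjusted threshold of 0.05. At an unadjusted p under 0.05 there were 7, namely 2 with more and 5 with fewer reads in posterior cells. Over all genes tested in the same fit, 2.28% were higher and 4.21% lower at this threshold, or 270 and 498 genes. The balance turned in DESeq2, with 679 higher and 370 lower genes, and without posterior B, with 495 and 372. The list's 7 became 3 of 54 without posterior B, 6 of 53 without posterior G and 4 of 50 without posterior R. Over all genes those fits gave 867 of 11422, 502 of 11039 and 524 of 10770. Groups of libraries did not overlap for 10 list genes that were higher in anterior and 5 that were higher in posterior cells, against 12.3% and 9.57% of all genes tested. In the list 33 of 54 genes were lower in posterior cells and the median log2 fold change was -0.28. Of the members this was so for 7 of 8, and their median was -0.49. Of all genes tested, 52.1% were lower, with a median of -0.055. The list's count of lower genes was 27 of 54 without posterior B, 31 of 60 without anterior B and 30 of 57 without anterior G. The median of all genes was then 0.0066, 0.16 and 0.45. Without posterior G and R the list's count was 31 of 53 and 33 of 50, with medians of all genes at -0.079 and -0.097. Neuron markers were lower in posterior cells for 7 of 9 genes, with a median log2 fold change of -1.10, and the groups did not overlap for gap43 and the STMN2 gene ENSDARG00000070537. Progenitor markers were higher for 6 of 9 tested genes, with a median of 0.37, and for PCNA the groups did not overlap. The 3 lower ones included the abundant mki67 and FABP7, at log2 fold changes of -0.26 and -0.55. The part of these markers in the member and list values was not tested. DESeq2 called 2 of the 54, against 252 of all 11827 genes, of which 1843 got no adjusted p. The 2 were CXCL12 and the DSCAM gene ENSDARG00000028118, at DESeq2 adjusted p 1.80e-05 and 0.0110. Both had 11 or fewer reads in each anterior library.

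Of the other ligands, 2 of 5 tested genes were higher and 3 lower in posterior cells. The chemokine gene CXCL12 (ENSDARG00000037116), whose receptor CXCR4 is affected by Slit in mammalian cells, had 0 reads in both anterior libraries. In posterior cells it had 41.9 (B), 25.5 (G) and 20.3 (R) CPM. Its posterior mean was at least 165-fold higher than the floor of 3 reads per anterior library (edgeR adjusted p 0.726). At 10 to 30 CPM in the others, anterior B and G had 0 reads for 21.9% and 14.0% of genes. The NELL2 gene ENSDARG00000062797, whose mammalian protein is a ligand of Robo3, had 157 (B) and 112 (G) CPM in anterior cells, against 0.260 (B), 51.5 (G) and 0.9499 (R) CPM in posterior cells. Its groups did not overlap, and its log2 fold change was -2.99 with an SE of 0.98, at an edgeR adjusted p of 0.726. It was -7.69 without posterior G and -5.75 with limma-voom, and the unadjusted p of 0.00951 was 0.184 with the legacy form of the edgeR fit. The other NELL2 gene, ENSDARG00000090690, had 0 reads in anterior G and 20.4 to 34.7 CPM elsewhere. The netrin genes NTN1 ENSDARG00000105112 and ENSDARG00000022531 had 224 and 221 CPM in anterior B, 80.9 and 66.2 in anterior G, and 48.9 and 0 in posterior B. In posterior G and R they had 220 and 95.7, and 72.9 and 24.1 CPM.

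Of the receptor partners, 7 of 9 tested genes were lower in posterior cells. The N-cadherin gene CDH2 (ENSDARG00000018693), an adhesion molecule that Robo acts on in chick neurons, had 2156 (B) and 1321 (G) CPM in anterior cells, against 764 (B), 1082 (G) and 1094 (R) CPM in posterior cells. All anterior values were higher, and the log2 fold change was -0.82 with an SE of 0.29, at an edgeR adjusted p of 0.726. Without anterior B it was -0.43. The DSCAM gene ENSDARG00000028118, a guidance receptor gene, had 0.118 (B) and 0.544 (G) CPM in anterior cells, against 63.3 (B), 3.17 (G) and 19.5 (R) CPM in posterior cells. The other DSCAM gene, ENSDARG00000024865, had 30.3 (B) and 4.21 (G) CPM in anterior cells, against 74.8 (B), 18.8 (G) and 19.9 (R) CPM in posterior cells, so that its groups overlapped. CXCR4 (ENSDARG00000041959) ranged from 744 CPM in posterior R to 2067 CPM in anterior B. FLRT3, which binds Robo1 in the mouse, ranged from 482 CPM in posterior B to 962 CPM in posterior G. The netrin receptor gene DCC was at 3.95 CPM or less in all libraries.

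Heparan sulfate, the sugar chain that holds Slit to Robo, is made by enzymes of which 6 of 11 tested genes were higher and 5 lower in posterior cells. The NDST1 gene ENSDARG00000103606, a sulfotransferase, had 173 (B) and 18.4 (G) CPM in anterior cells, against 0 (B), 38.3 (G) and 0.106 (R) CPM in posterior cells. Its unadjusted p of 0.0379 rests on anterior B, the highest library, without which the p was 0.750. HS6ST2 had 354 (B) and 287 (G) CPM in anterior cells, against 126 (B), 191 (G) and 261 (R) CPM in posterior cells, without overlap (edgeR adjusted p 0.728). EXT2 ran from 0.0649 CPM in posterior B to 139 CPM in anterior G.

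Inside the cell, 14 of 22 tested effector genes were lower in posterior cells. The small GTPase gene CDC42 was nearly level, at 780.5 to 923 CPM, with all posterior libraries above the anterior ones. The Rac gene rac1a had 255 to 726 CPM with overlapping groups. SRGAP1 and SRGAP3 encode GTPase-activating proteins that bind Robo. SRGAP3 had 44.8 (B) and 76.6 (G) CPM in anterior cells, against 0 (B), 16.4 (G) and 33.5 (R) CPM in posterior cells. SRGAP1 (ENSDARG00000007461) had 4.42 (B) and 0.297 (G) CPM in anterior cells, against 28.9 (B), 20.2 (G) and 13.3 (R) CPM in posterior cells. The other gene of this pair, srgap1b, had 68 reads in anterior G, 44 reads in posterior R and 0 elsewhere, at a log2 fold change of -1.05. The edgeR unadjusted p was 0.0869 for SRGAP3 and 0.0758 for SRGAP1, and both were picked after their values were seen. So were DCC and the second gene of the NELL2, DSCAM, CXCL12, SRGAP1 and adam10 pairs.

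In receptor turnover, 4 of 7 tested genes were lower in posterior cells. The NDFIP1 gene ENSDARG00000013979 encodes an adaptor of ubiquitin ligases that lowers Robo1 in mammals. It had 168 (B) and 130 (G) CPM in anterior cells, against 59.8 (B), 63.3 (G) and 48.7 (R) CPM in posterior cells. Its log2 fold change was -1.38 with an SE of 0.58, at an edgeR adjusted p of 0.726. The other NDFIP1 gene, ENSDARG00000102367, had 63.5 to 101 CPM with overlapping groups. The sheddase gene adam10a had 57.9 to 96.8 CPM in 4 libraries and 0.130 CPM in posterior B. The other gene of this pair, adam10b, had 54.2 CPM in posterior B and 4 or fewer reads in each other library, and was not tested.

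**Figure D4:**
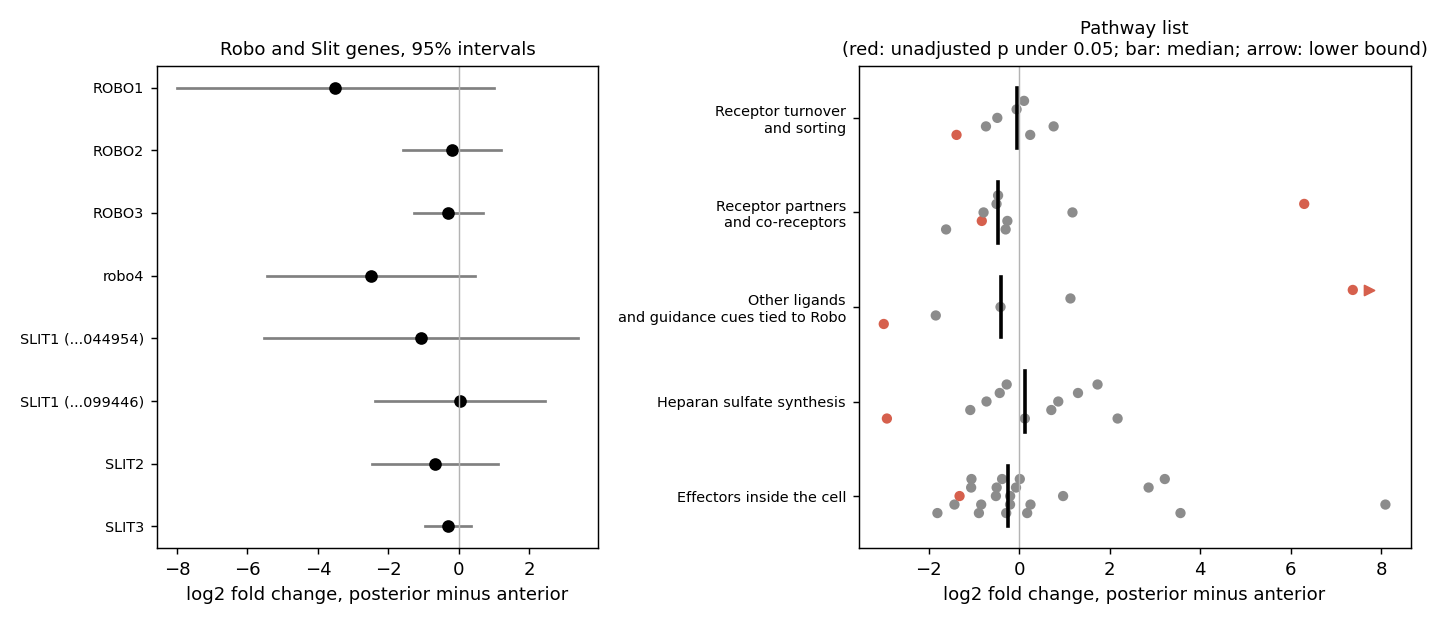
Log2 fold change, posterior minus anterior, of the 8 Robo and Slit genes with their 95% intervals (left) and of the 54 tested genes of the pathway list by group (right; points in red have an unadjusted p under 0.05, black bars are medians, the arrow marks CXCL12 at its lower bound). All 8 intervals include 0, and the group medians lie between -0.47 and 0.13.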

How the data were processed

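The authors deposited 1 file per library of whole-number read counts per Ensembl gene, with no normalization. The submitters' processing notes name TopHat2 2.1.0, HTSeq 0.6.1 and the build GRCz10. The use of strand is not given in the sources used here, so reads of overlapping and antisense genes cannot be told apart. Library sizes counted only reads of tested genes, so reads that named no gene (27.5% to 31.0% of each file) stayed out. They include reads with several alignments, so a gene that shares sequence with another could be undercounted. How much the paired genes named here share was not examined.

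Counts were tested with edgeR 4.0.16 (R 4.3.3; glmQLFit with its newer form, TMM factors, filterByExpr with a minimum count of 10 and total of 15) over 11827 genes, two-sided, with Benjamini-Hochberg adjustment over all of them and a threshold of 0.05. Groups follow the source names, 2 anterior against 3 posterior libraries. The SE is the log2 fold change over the square root of the F statistic, and 95% intervals use its t quantile. Both are approximate, most of all for genes at or near 0 in some libraries. The fit was also checked on simulated data, but the outcome is not reported here and nothing is drawn from it.

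Members and lists were chosen with earlier results of these data known. The pathway list had 68 symbols, 65 of them matched. Genes named are all members, list genes whose unadjusted p was under 0.05 and the 2 others of each group with the highest mean CPM, with exceptions stated. The values of 1 such list gene and of 1 marker gene are not reported here. Names of Ensembl identifiers were looked up in a symbol table. Alternatives were RLE size factors, 2 other filters, DESeq2 1.42.0, limma-voom (limma 3.58.1), the legacy form of glmQLFit (added after seeing the data), the replicate letter as a block and each library left out. Other libraries of the study were not analysed here.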

Additional observations from a re-analysis of the deposited data

How the results depend on the processing

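No member had an adjusted p under 0.05 in any of the 12 distinct alternatives (the 4 libraries that share letters, without the block, are the fit without posterior R), and SLIT3, SLIT2, ROBO3 and ROBO1 were lower in posterior cells in each one that tested them. ROBO2, at -0.19, ran from -0.34 to 0.026 with 1 library left out, and was 0.026 in the 4 libraries that share letters and 0.023 with the replicate block over them. The SLIT1 gene ENSDARG00000099446, at 0.038, was -0.0074 with DESeq2, -2.68 with limma-voom, -0.72 in those 4 libraries, -0.86 with the replicate block and -0.72 to 0.72 with 1 library left out. The other SLIT1 gene ran from -1.92 to 3.63 (without anterior G) and robo4 from -3.55 to 8.52 (without anterior B) in the fits that left out 1 library and kept the gene. The cause of these changes was not tested. All alternatives reuse the same libraries, so a direction that they share is not independent support. Leaving out an anterior library leaves 1, which is assumed to vary like the others.

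Genes passing an adjusted p of 0.05 numbered 0 in edgeR, 252 in DESeq2 and 0 to 7 with 1 library left out, with 7 without anterior G and 1 without anterior B. At an unadjusted p under 0.05 there were 768, 211 with the replicate block, and 502 (without posterior G) to 1009 (without anterior G) with 1 library left out. For the pathway list that count was 7, against 4 in the 4 libraries that share letters, 0 with the replicate block and 2 to 9 with 1 library left out. The list count was 2 without anterior B, 3 without posterior B and 4 without posterior R. Deviations from group means of libraries that share a letter correlated at -0.0019 (B) and 0.0063 (G). With so few libraries, such values cannot show whether a letter marks a shared animal or day. With 2 against 3 libraries of 100 cells, and zeros in genes under 100 CPM, the intervals given are wide, and how depth bears on them was not tested.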
